A study of Mus musculus with 6 samples.

Results

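The genes that encode the subunits of the mitochondrial respiratory chain and of ATP synthase were examined in injured mouse livers. They were taken from the gene table by symbol, as the numbered Ndufa, Ndufb, Ndufc, Ndufs and Ndufv genes, Sdha to Sdhd and the symbols that begin with Uqcr, Cox4 to Cox8 or Atp5, together with the protein-coding mt-Nd, mt-Co, mt-Cytb and mt-Atp genes. Of 108 matching rows, 10 with -ps in the symbol and 6 with a mean under 0.5 FPKM (an RNA level that counts fragments relative to the length of the gene and the size of the library) over the 6 livers were left out. This left 92 genes of 55491 rows, or of the 13943 genes that reached that mean and were tested. Of these, 79 lie in the nuclear genome and 13 in the mitochondrial genome. Just outside the minimum was Cox4i2, the lung-type isoform of a complex IV subunit, with a mean of 0.0417 FPKM, and just inside it was Cox6a2, a muscle isoform, with 1.10 FPKM. The other rows left out for a low mean were listed at 0 in every liver.

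Bulk RNA-seq was done on livers of 3 Chrna2fl/fl;AlbCre mice (mutant) and 3 Chrna2fl/fl mice (control), the floxed genotype without Cre. Cre under the albumin promoter deletes the floxed Chrna2 gene, which encodes a subunit of the nicotinic acetylcholine receptor, in hepatocytes. All mice started at 7 to 10 weeks of age, ate an HFD (60% of its calories as fat) during 4 weeks and were given intraperitoneal CCl4, a hepatotoxin, at 0.5 μl/g of body weight 2 times per week in the last part of the feeding. The sources used here do not give the sex of the mice or the strain background of these lines.

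The respiratory chain passes electrons from NADH (complex I) and succinate (complex II) through ubiquinone, complex III and cytochrome c to oxygen at complex IV, and complex V uses the resulting proton gradient to make ATP. Complexes I, III, IV and V are built from subunits of both genomes, whereas complex II is wholly nuclear. Hepatocytes are rich in mitochondria and rely on this chain for urea synthesis, gluconeogenesis and the oxidation of fatty acids.

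The libraries were read at 9.16 to 9.43 M fragments in mutant livers and 17.2 to 18.1 M fragments in control livers, as estimated from the steps between low FPKM values. These depths did not overlap, so a sequencing batch and the genotype cannot be told apart. Chrna2 itself measured 0.36, 0.03 and 0.32 FPKM in the mutant livers (mice a, b and c, in that order throughout), against 1.24, 1.20 and 2.64 FPKM in the control livers (likewise a, b and c). Over all tested genes the median log2 fold change, taken as mutant minus control on the log2(FPKM + 0.1) scale throughout, was 0.19, and 0 genes passed an adjusted p under 0.05 in limma (0.0% of 13943 in each direction). That count was 39 without control liver b, 7 without mutant liver a, 2 without mutant liver b and 1 without mutant liver c, and no respiratory chain gene was among them. Without adjustment, p fell under 0.05 for 13.2% of all genes with higher and 3.02% with lower values in mutant livers. The higher ones made up 81.4% of those genes, but 43.9% after median-ratio scaling and 51.0% after quantile normalization. In bulk tissue, fewer cells of a type and less RNA per cell cannot be told apart.

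Several members have near-identical copies elsewhere in the genome, and the sequences below show why levels of some mitochondrial genes cannot be read from their own row. On chromosome 1 of GRCm38, the minus strand from 24611535 to 24616197 holds 7 unprocessed pseudogenes that match mt-Co1, mt-Co2, mt-Atp6, mt-Co3, mt-Nd3, mt-Nd4l and mt-Nd4. The lines give 60 bases of 3 mitochondrial genes, each followed by its copy. Capitals mark a base at which the pair differs, and the pair without capitals is identical over its whole alignment of 678 bases.
mt-Nd3, chrM:9459-9518, plus strand: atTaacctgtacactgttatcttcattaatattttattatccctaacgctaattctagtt
Gm28438, chr1:24613060-24613119, minus strand: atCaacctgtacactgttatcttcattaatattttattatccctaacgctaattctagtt
mt-Co1, chrM:6390-6449, plus strand: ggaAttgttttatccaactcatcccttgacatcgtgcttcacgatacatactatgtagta
Gm29216, chr1:24616129-24616188, minus strand: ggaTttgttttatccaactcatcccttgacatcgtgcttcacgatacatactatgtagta
mt-Atp6, chrM:7927-7986, plus strand: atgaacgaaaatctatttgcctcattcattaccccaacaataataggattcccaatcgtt
Gm10925, chr1:24614592-24614651, minus strand: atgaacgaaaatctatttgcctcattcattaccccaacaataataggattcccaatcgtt
The difference in mt-Nd3 was T3C and that in mt-Co1 was A1066T, counted from the first base of the mitochondrial gene, and each was the only one in alignments of 345 and 483 bases.

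No respiratory chain gene passed the adjusted threshold, and the nuclear-encoded subunits were centred slightly below 0 while the tested genes as a whole were centred above it. Of the 79 nuclear genes, 61 (77.2%) had a fold change below 0, against 29.7% of all genes, and their median log2 fold change was -0.09, with quartiles of -0.17 and -0.01. Before adjustment, limma gave p under 0.05 to 1 higher gene of the 79 (1.27%) and to 6 lower ones (7.59%), against 13.2% higher and 3.02% lower of all genes. Every mutant liver lay above every control liver for 2 of the 79 (2.53%, against 18.7% of all genes), and below for 13 of the 79 (16.5%, against 4.34% of all genes). The smallest adjusted p of a member was 0.255.

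The summed level of the nuclear subunits did not separate the genotypes. It was 19124, 17299 and 16533 FPKM in mutant livers, against 18658, 18929 and 18043 FPKM in control livers. Mutant liver a had the highest sum of the 6 and mutant livers b and c the lowest. Of the 76 nuclear subunits with a mean of at least 10 FPKM, mutant liver c was the lowest liver for 44 and mutant liver a the highest for 28. Without mutant liver c, 48 of the 79 nuclear genes had fold changes below 0 and the median of the 79 was -0.03.

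**Figure D1:**
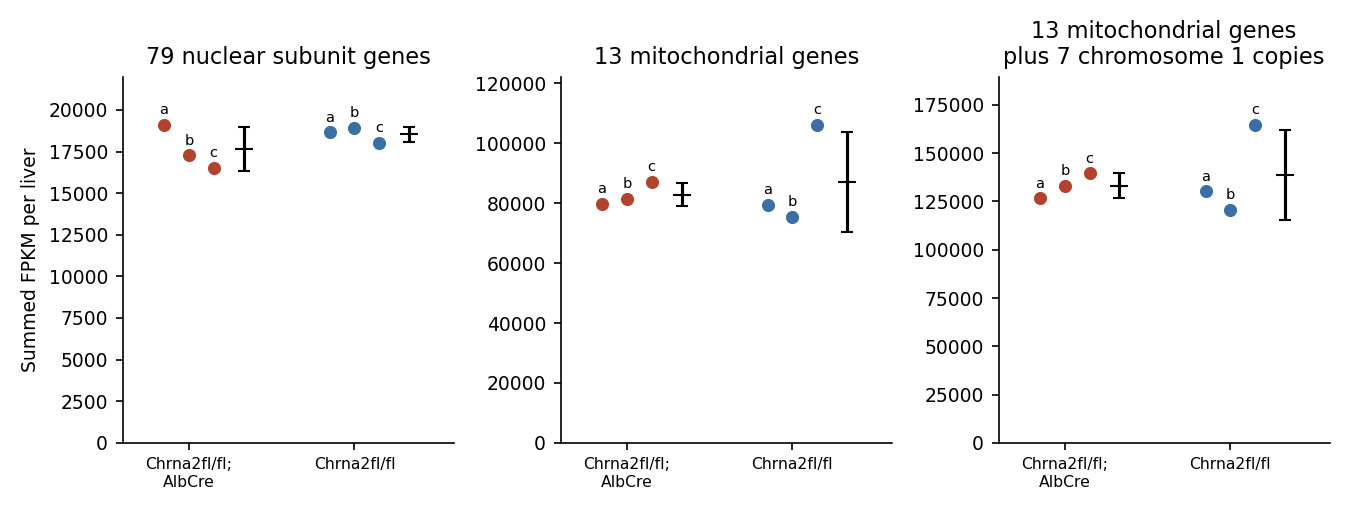
Summed FPKM in each liver (points, letters name the mice) of the nuclear subunit genes, the mitochondrial genes, and the mitochondrial genes with the chromosome 1 copies. Mutant livers stand left of control livers in each panel, and bars give the mean ± SD (n = 3). The nuclear sums of mutant livers run from 16533 to 19124 FPKM and enclose those of control livers, and control liver c is highest in both mitochondrial panels.

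The size of the genotype difference moved with the scaling of the libraries, which also moved the median of all genes. After median-ratio scaling the median of all genes was -0.01 and that of the nuclear subunits -0.29. The unadjusted p in limma was then under 0.05 for 0 higher and 33 lower of the 92 members, against 850 higher and 1085 lower of all 13943 genes. Relative to the median of all genes, the nuclear subunits lay at -0.28 in the deposited scale, -0.28 after median-ratio scaling and -0.11 after quantile normalization. Abundance moved with the fold change as well: the 1580 genes with a mean of 50 to 1000 FPKM had a median of 0.08 and 42.5% below 0, whereas the 6022 genes of 0.5 to 5 FPKM had a median of 0.26 and 27.8% below 0. The 75 nuclear subunits between 50 and 1000 FPKM had a median of -0.08 and 77.3% below 0. The part of abundance in the difference was not tested.

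Complex I, which oxidises NADH, was represented by 35 nuclear genes with means of 48.0 to 442 FPKM, and 27 of them had fold changes below 0 (median -0.08). Ndufa6, an accessory subunit and the most abundant of them, was at 473, 418 and 417 FPKM in mutant livers, against 425, 451 and 465 FPKM in control livers, and the groups overlapped. Ndufa3, another accessory subunit, had the largest decrease, with 42.1, 43.8 and 35.1 FPKM in mutant livers, against 55.3, 66.2 and 45.9 FPKM in control livers. The groups of Ndufa3 did not overlap, and its log2 fold change was -0.46 (SE 0.17, adjusted p = 0.285 from limma). Ndufv3, an accessory subunit of the NADH-binding module that was named for its unadjusted p after its values were seen, was at 175, 159 and 142 FPKM in mutant livers, against 204, 206 and 185 FPKM in control livers. Every mutant value of Ndufv3 was below every control value (log2 fold change -0.33, SE 0.13, adjusted p = 0.289 from limma). In the other direction, Ndufa8, an accessory subunit, had the smallest p, with 163, 160 and 151 FPKM in mutant livers, against 125, 154 and 113 FPKM in control livers. Mutant liver c lay below control liver b for Ndufa8, so its groups overlapped (log2 fold change 0.28, SE 0.15, adjusted p = 0.363 from limma). The row of Ndufb4 averaged 64.2 FPKM and that of its copy Ndufb4c on chromosome 15, identical over 390 bases, 314 FPKM, so the level of Ndufb4 is uncertain.

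Complex II, succinate dehydrogenase, also works in the TCA cycle, and all 4 of its genes had fold changes below 0 (median -0.17). Sdha, the flavoprotein that oxidises succinate, was at 210, 197 and 175 FPKM in mutant livers, against 207, 230 and 239 FPKM in control livers, a log2 fold change of -0.22 (SE 0.13, adjusted p = 0.414 from limma). Sdhb, the iron-sulphur subunit, was at 185, 175 and 131 FPKM in mutant livers, against 198, 180 and 185 FPKM in control livers. Mutant liver a overlapped the control livers for Sdha and Sdhb. Sdhc and Sdhd, the membrane anchors, averaged 74.2 ± 7.28 and 159 ± 30.1 FPKM in mutant livers, against 81.1 ± 7.21 and 170 ± 11.1 FPKM in control livers (SD, n = 3), and their groups overlapped as well. The sum of the 4 genes was 651, 617 and 506 FPKM in mutant livers, against 655, 678 and 658 FPKM in control livers, so the sums did not overlap but the nearest values were 0.61% apart.

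Complex III, which passes electrons from ubiquinol to cytochrome c, held the member with the smallest p. Uqcr11, its smallest subunit, was at 409, 423 and 405 FPKM in mutant livers, against 579, 514 and 580 FPKM in control livers. The mutant values lay within 17.6 FPKM of each other and all below the lowest control value (log2 fold change -0.43, SE 0.12, adjusted p = 0.255 from limma). Uqcrb, the most abundant of the 8 nuclear genes, was at 612, 497 and 537 FPKM in mutant livers, against 569, 572 and 563 FPKM in control livers, and overlapped. Uqcr10 had the smallest p among the members above 0, with 318, 359 and 306 FPKM in mutant livers, against 356, 324 and 281 FPKM in control livers. Its fold change of 0.04 is near 0 and was below 0 under median-ratio scaling, quantile normalization and array weights. The 8 nuclear genes of complex III summed to 2438, 2324 and 2219 FPKM in mutant livers, against 2604, 2556 and 2489 FPKM in control livers, and these sums did not overlap. The nearest values were 2438 and 2489 FPKM. The sums include Uqcr11, the only 1 of the 8 genes whose own groups did not overlap. The sums of the nuclear genes overlapped between the genotypes for complexes I, IV and V. They ran from 4507 to 5436 FPKM in mutant livers and 4952 to 5450 FPKM in control livers for complex I, from 4440 to 4881 FPKM in mutant livers and 4694 to 4827 FPKM in control livers for complex IV, and from 4861 to 5717 FPKM in mutant livers and 5248 to 5620 FPKM in control livers for complex V.

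**Figure D2:**
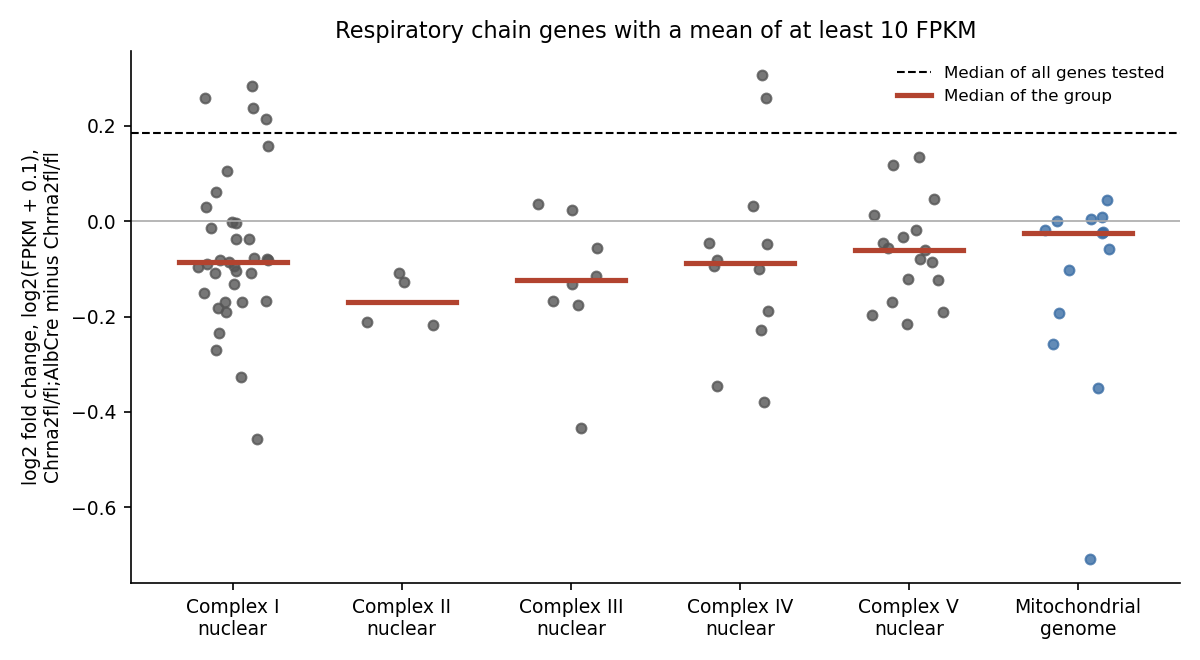
log2 fold change (vertical axis, mutant minus control on the log2(FPKM + 0.1) scale) of each nuclear gene with a mean of at least 10 FPKM by complex, and of each mitochondrially encoded gene. Red lines are group medians and the dashed line is the median of all 13943 genes at 0.19. All 6 group medians lie below 0, and most points lie below the dashed line.

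Complex IV, cytochrome c oxidase, held more genes whose groups did not overlap than any other complex, 6 of its 15 nuclear genes below (against 4.34% of all genes) and 2 above (against 18.7% of all genes). Cox4i1, the ubiquitous form of a subunit that binds regulatory nucleotides, was at 587, 582 and 563 FPKM in mutant livers, against 616, 628 and 612 FPKM in control livers. The values of Cox4i1 did not overlap but differed little (log2 fold change -0.10, SE 0.11, adjusted p = 0.645 from limma). Cox5b, a zinc-binding subunit on the matrix side, was at 229, 186 and 210 FPKM in mutant livers, against 275, 255 and 281 FPKM in control livers. Its log2 fold change was -0.38 (SE 0.13, adjusted p = 0.270 from limma), with every mutant liver lower. Cox6c, a small membrane subunit named for its unadjusted p after its values were seen, was at 382, 331 and 392 FPKM in mutant livers, against 485, 458 and 457 FPKM in control livers. It too was lower in every mutant liver (log2 fold change -0.35, SE 0.12, adjusted p = 0.282 from limma). Ndufa4, now counted as a subunit of complex IV in spite of its name, averaged 460 ± 13.1 FPKM in mutant livers and 525 ± 24.5 FPKM in control livers (SD, n = 3), and its groups did not overlap.

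Cox7a2 and Cox7c, small membrane subunits of the same complex, were the 2 members higher in every mutant liver. Cox7a2, the liver form of its subunit, was at 256, 230 and 258 FPKM in mutant livers, against 209, 211 and 182 FPKM in control livers. Its log2 fold change was 0.31 (SE 0.12, adjusted p = 0.294 from limma). Cox7c, the most abundant nuclear gene of the complex, was at 939, 724 and 773 FPKM in mutant livers, against 712, 663 and 651 FPKM in control livers (log2 fold change 0.26, SE 0.14, adjusted p = 0.386 from limma). Both stayed above 0 under median-ratio scaling (0.11 for Cox7a2 and 0.06 for Cox7c) and quantile normalization (0.30 and 0.25).

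The paired isoforms of complex IV were in their liver forms in both genotypes. Cox6a1 averaged 614 ± 55.5 FPKM in mutant livers and 599 ± 11.5 FPKM in control livers, Cox6b1 193 ± 19.3 FPKM in mutant livers and 226 ± 13.4 FPKM in control livers, and Cox8a 701 ± 30.7 FPKM in mutant livers and 724 ± 8.67 FPKM in control livers (SD, n = 3 each). Of these, only Cox6b1 had groups that did not overlap. Cox7a2l, a relative of Cox7a2 that takes part in supercomplexes, averaged 105 ± 6.99 FPKM in mutant livers and 111 ± 3.46 FPKM in control livers. The muscle isoform Cox7a1 was at 0, 1.81 and 0.83 FPKM in mutant livers, against 3.07, 3.84 and 2.19 FPKM in control livers, a log2 fold change of -2.44 (SE 0.998, adjusted p = 0.297 from limma) whose size depends on the pseudocount because 1 mutant value is 0. Cox6a2 was at 2.44, 1.37 and 0.79 FPKM in mutant livers, against 0.27, 0.87 and 0.83 FPKM in control livers, and Cox6b2, the testis isoform, at 0.90, 0.46 and 1.52 FPKM in mutant livers, against 1.99, 1.19 and 1.05 FPKM in control livers. Cox8b, the other muscle isoform, was listed at 0 throughout. The 7 markers of skeletal and heart muscle summed to 0.02 to 1.12 FPKM in mutant livers and 0 to 0.17 FPKM in control livers.

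**Figure D3:**
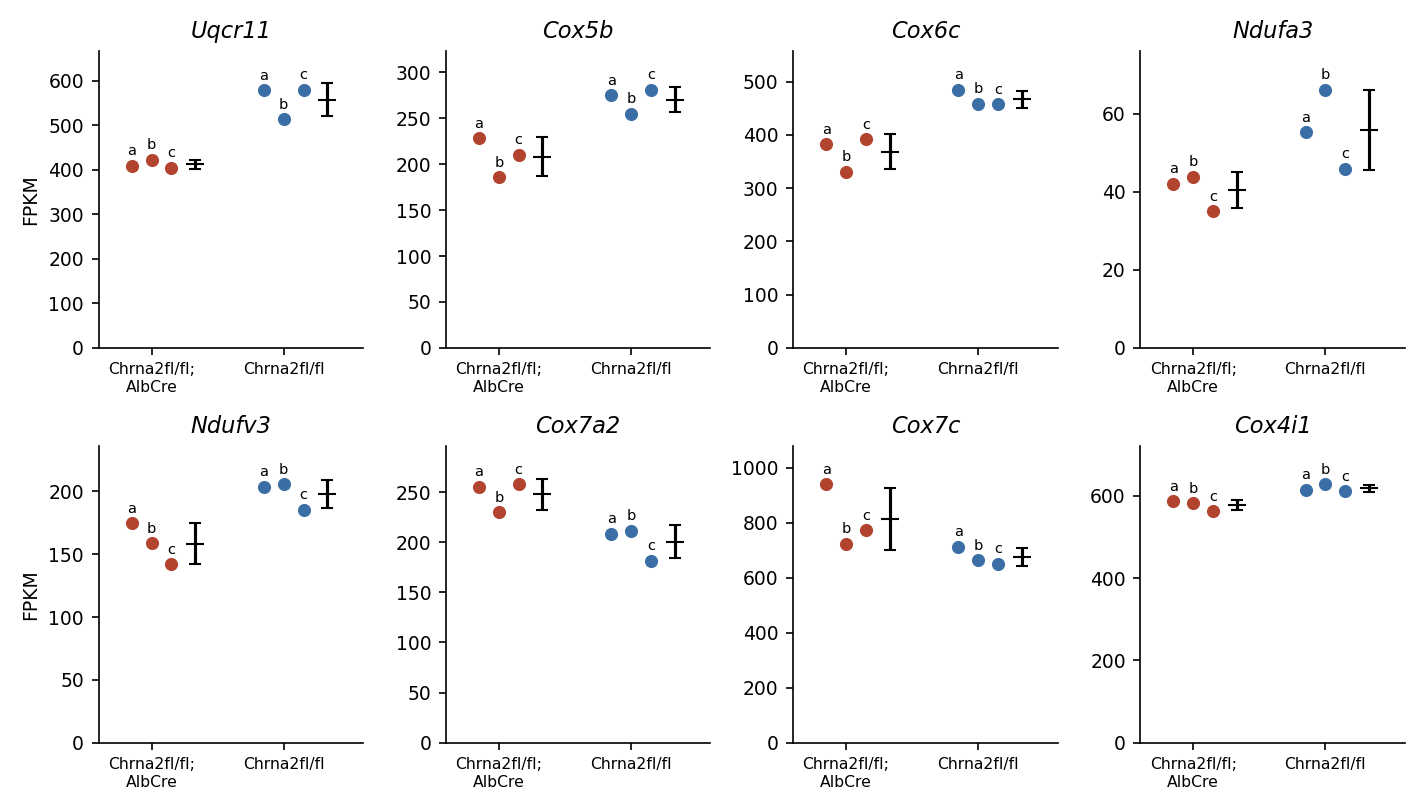
FPKM in each liver (points, letters name the mice) of 8 members of complexes I, III and IV, with mutant livers left of control livers and bars for the mean ± SD (n = 3). The 8 are drawn from the nuclear genes whose groups did not overlap, 13 of 79 lower and 2 of 79 higher in mutant livers (4.34% and 18.7% of all genes). Of the 8, 6 are lower in mutant livers, with the mutant values of Uqcr11 between 405 and 423 FPKM, and Cox7a2 and Cox7c are higher. None passed the adjusted threshold.

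Complex V, ATP synthase, had a median of -0.06 over 17 nuclear genes and a range of -0.22 to 0.13. Atp5b, the catalytic subunit and the most abundant nuclear member of the whole chain, was at 1028, 799 and 831 FPKM in mutant livers, against 999, 988 and 986 FPKM in control livers. The 3 control livers lay close together, whereas mutant liver a lay above them and mutant livers b and c below. Atp5j2, a subunit of the membrane part, had the smallest p among members below 0, with 154, 145 and 139 FPKM in mutant livers, against 171, 172 and 157 FPKM in control livers. Its groups did not overlap (log2 fold change -0.19, SE 0.11, adjusted p = 0.417 from limma). Atp5h, of the peripheral stalk, had the smallest p among members above 0, at 593, 505 and 540 FPKM in mutant livers, against 527, 488 and 476 FPKM in control livers. Mutant liver b lay below control liver a for Atp5h, and its fold change of 0.13 was -0.06 under median-ratio scaling.

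The 3 genes Atp5g1, Atp5g2 and Atp5g3 encode the same mature ring subunit c of ATP synthase with different import sequences. Atp5g3 made 60.5%, 56.3% and 63.2% of their summed FPKM in mutant livers, against 63.3%, 60.04% and 63.7% in control livers, and was the main source in every liver. Atp5g1 averaged 166 ± 9.05 FPKM in mutant livers and 161 ± 16.5 FPKM in control livers (SD, n = 3). Atp5g2 was at 150, 144 and 83.9 FPKM in mutant livers, against 113, 116 and 108 FPKM in control livers, so mutant liver c lay apart from the other mutant livers. Its copy Gm10175 on chromosome 7, identical over 645 bases, averaged 35.6 FPKM. The row of Atp5l, of the membrane part, averaged 204 FPKM and that of its copy Gm10221 on chromosome 5, identical over 309 bases, 248 FPKM.

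The 13 mitochondrially encoded genes had no difference past the threshold, and their sum varied more between control livers than between genotypes. The sum was 79780, 81534 and 87205 FPKM in mutant livers, against 79502, 75550 and 106273 FPKM in control livers. These were 9.81%, 9.94% and 10.7% of all FPKM in mutant livers, against 9.85%, 9.23% and 12.7% in control livers. Control liver c was the highest liver for 11 of the 13 genes. The median log2 fold change of the 13 was -0.03, and 0.08 without control liver c.

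On the heavy-strand transcript, mt-Co1, the catalytic core of complex IV, averaged 18289 ± 940 FPKM in mutant livers and 18694 ± 2730 FPKM in control livers (SD, n = 3). mt-Cytb, the mitochondrial core of complex III, was at 13041, 13351 and 14346 FPKM in mutant livers, against 11900, 12391 and 16905 FPKM in control livers, a log2 fold change of 0.00 (SE 0.19, adjusted p = 0.999 from limma). The mutant values of mt-Cytb lay inside the range of the control values. The complex I genes mt-Nd1, mt-Nd2, mt-Nd4 and mt-Nd5 averaged 9792 ± 1009, 8751 ± 704, 7589 ± 125 and 3002 ± 352 FPKM in mutant livers, against 9757 ± 839, 9269 ± 2290, 7513 ± 1914 and 3545 ± 1233 FPKM in control livers. mt-Atp8, of the membrane part of complex V, averaged 14088 ± 686 FPKM in mutant livers and 15381 ± 3666 FPKM in control livers, and shares bases with mt-Atp6, as mt-Nd4l does with mt-Nd4. At 204 bases, mt-Atp8 is shorter than the mean fragment, estimated at 274 to 288 bases over the libraries, and mt-Nd4l, at 297 bases, is little longer. The FPKM levels of these genes, and their part in the sums, are therefore uncertain.

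mt-Nd6, a membrane subunit of complex I, is the one member encoded on the other strand of the mitochondrial genome (chrM:13552-14070, minus strand), and it was the only mitochondrial gene whose groups did not overlap. That is 1 of 13 lower in every mutant liver (7.69%, against 4.34% of all genes) and 0 higher (against 18.7% of all genes). mt-Nd6 was at 3614, 3776 and 4189 FPKM in mutant livers, against 4837, 4253 and 5758 FPKM in control livers. The log2 fold change was -0.35 (SE 0.17, adjusted p = 0.335 from limma), with every mutant liver lower. The highest mutant value and the lowest control value were 4189 and 4253 FPKM, so the gap between the genotypes was small.

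The rows of mt-Co2, mt-Co3, mt-Atp6, mt-Nd3 and mt-Nd4l stood far below those of their neighbours, and their copies on chromosome 1 held most of the level. mt-Atp6 averaged 1304 FPKM over the 6 livers and Gm10925 20393 FPKM, so 6.03% of the joint level stood in the mitochondrial row. By annotated length, the share in the mitochondrial row was 7.19% for mt-Co3, 14.2% for mt-Co2, 14.4% for mt-Nd3 and 6.15% for mt-Nd4l, but 97.6% for mt-Nd4 and 90.2% for mt-Co1. Fragments within an identical stretch could have come from either place, and which one was not tested.

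With the copies added, mt-Atp6 became the member with the highest mean over the 6 livers, 21607 FPKM, close to 20506 FPKM for mt-Co1. It was at 20106, 22062 and 22653 FPKM in mutant livers, against 20751, 18740 and 25329 FPKM in control livers. In control liver a, mt-Co1 with its copies was higher, at 21421 FPKM by annotated length. Lengths corrected for the size of the fragments (a mean of 276 bases in control liver a) were not used. The order of mt-Co1 and mt-Atp6 in that liver is therefore uncertain. mt-Co3 averaged 11415 FPKM in mutant livers and 11739 FPKM in control livers on this scale, and mt-Co2 8289 FPKM in mutant livers and 9115 FPKM in control livers. mt-Nd3 averaged 3795 FPKM in mutant livers and 3711 FPKM in control livers, and mt-Nd4l 2613 FPKM in mutant livers and 2640 FPKM in control livers. The joint fold changes lay between -0.13 for mt-Co2 and 0.04 for mt-Nd4l and mt-Nd4, and the groups overlapped for each. mt-Nd4l alone had been at 163, 41.3 and 181 FPKM in mutant livers, against 133, 122 and 329 FPKM in control livers, a log2 fold change of -0.71 (SE 0.62) that was -0.023 without mutant liver b. The mitochondrial genes and the 7 copies together held 15.6%, 16.2% and 17.1% of all FPKM in mutant livers, against 16.1%, 14.8% and 19.6% in control livers.

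**Figure D4:**
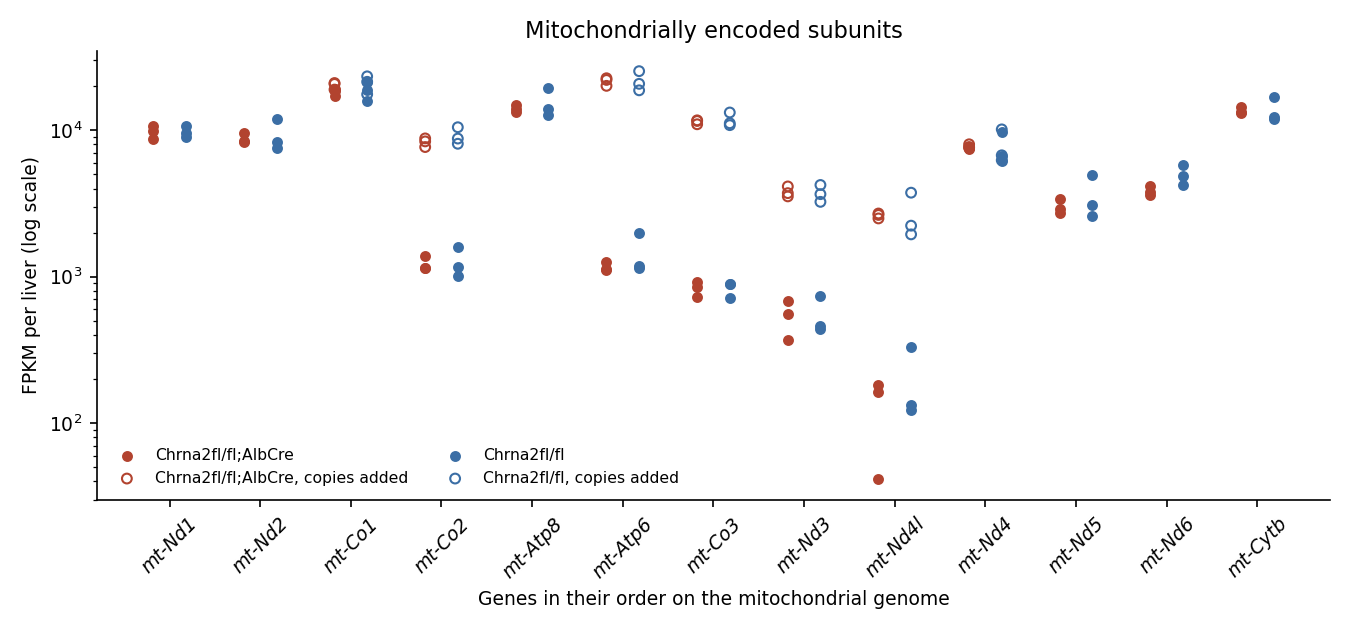
FPKM in each liver on a log axis of the 13 mitochondrially encoded genes in their order on the mitochondrial genome, mutant livers left of control livers. Filled points are the genes' own rows and open points add the near-identical nuclear copies. mt-Co2, mt-Atp6, mt-Co3, mt-Nd3 and mt-Nd4l move up by far the most when copies are added, and mt-Nd6 is the one gene of the 13 whose mutant points all lie below its control points (7.69%, against 4.34% of all genes).

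The balance between the 2 genomes did not differ between genotypes beyond the spread of the livers. The mean log2 level of the nuclear genes minus that of the mitochondrial genes was -4.20, -4.22 and -4.57 in mutant livers, against -4.19, -4.10 and -4.79 in control livers. The difference of the group means was 0.03, with a pooled SD of 0.30 between livers. Liver c had the lowest balance in each genotype.

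Nuclear respiratory genes are known to be driven by NRF1, by GABPA (also called NRF2, of the ETS family), by YY1 and by ERRα, with PGC-1α as their coactivator. RefSeq promoters (GRCm38.p6, 250 bases before to 50 after the start) were matched for 66 of the 79 nuclear genes. The NRF1 motif GCGCNTGCG, searched on both strands like the others, was in promoters of 24 of these genes (36.4%), against 12.7% of the windows of tested genes and 6.31% of all 32851 windows. The ETS motif CCGGAAG was in promoters of 17 genes (25.8%, against 16.9% and 8.86% of windows). The YY1 motif AAGATGGCG was in those of 7 (10.6%, against 2.86% and 1.40%) and the ERR motif TCAAGGTCA in those of 2 (3.03%, against 0.28% and 0.42%). These shares of members count genes, whereas the shares set against them count windows. By window, members held NRF1 in 35.2%, ETS in 23.9%, YY1 in 9.86% and ERR in 2.82% of their 71 windows. Promoters are shown of Uqcr11, with the smallest p, of Cox7a2, the member higher in mutant livers with the smallest p, and of Sdhd and Cox6a1, which hold several of these motifs. Capitals mark each match on either strand, and the NRF1 letters read nearly alike on both, so a single place can give a match on each.
Uqcr11, chr10:80406772-80407071, minus strand: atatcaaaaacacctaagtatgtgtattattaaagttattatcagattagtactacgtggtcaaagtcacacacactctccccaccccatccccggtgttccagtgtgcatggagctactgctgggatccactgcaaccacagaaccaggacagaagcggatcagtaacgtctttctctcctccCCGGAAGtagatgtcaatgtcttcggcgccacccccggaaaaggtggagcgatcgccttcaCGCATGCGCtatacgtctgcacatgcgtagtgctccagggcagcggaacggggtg
Cox7a2, chr9:79759804-79760103, minus strand: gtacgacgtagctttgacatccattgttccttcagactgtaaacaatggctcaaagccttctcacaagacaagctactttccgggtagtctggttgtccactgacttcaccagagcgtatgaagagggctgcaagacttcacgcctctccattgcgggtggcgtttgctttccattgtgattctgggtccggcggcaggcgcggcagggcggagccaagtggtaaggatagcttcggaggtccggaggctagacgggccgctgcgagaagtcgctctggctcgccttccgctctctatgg
Sdhd, chr9:50603800-50604099, minus strand: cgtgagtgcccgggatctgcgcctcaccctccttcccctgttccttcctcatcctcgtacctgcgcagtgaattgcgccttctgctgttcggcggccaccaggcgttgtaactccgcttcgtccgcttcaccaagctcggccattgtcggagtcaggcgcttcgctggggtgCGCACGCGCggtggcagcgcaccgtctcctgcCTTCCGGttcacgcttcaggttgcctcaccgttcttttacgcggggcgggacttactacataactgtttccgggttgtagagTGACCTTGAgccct
Cox6a1, chr5:115348909-115349208, minus strand: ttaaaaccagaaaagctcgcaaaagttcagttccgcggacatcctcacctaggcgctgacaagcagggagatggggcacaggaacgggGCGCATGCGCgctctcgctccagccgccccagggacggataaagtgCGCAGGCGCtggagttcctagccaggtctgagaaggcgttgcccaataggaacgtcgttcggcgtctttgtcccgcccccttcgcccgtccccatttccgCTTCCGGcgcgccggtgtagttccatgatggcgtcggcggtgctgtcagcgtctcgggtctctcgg
Uqcr11 holds 1 match each of NRF1 and ETS, Sdhd 1 each of NRF1, ETS and ERR, Cox6a1 3 of NRF1 (of which a pair overlaps) and 1 of ETS, and none of these letters were found in the Cox7a2 window. The 24 genes with the NRF1 motif had a median log2 fold change of -0.05 and 15 below 0, and the 42 without it a median of -0.11 and 36 below 0. For ETS the medians were -0.11 for the 17 genes with the motif (15 below 0) and -0.08 for the 49 without (36 below 0). They were -0.003 with (7 genes) and -0.10 without (59) for YY1, and -0.08 with (2) and -0.09 without (64) for ERR. These differences were not tested.

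Transcripts of the regulators themselves were low or moderate and did not pass the threshold. Ppargc1a, which encodes PGC-1α, was at 2.29, 2.14 and 2.16 FPKM in mutant livers, against 1.94, 2.23 and 3.35 FPKM in control livers, and its relative Ppargc1b averaged 1.76 ± 0.81 FPKM in mutant livers and 1.57 ± 0.71 FPKM in control livers (SD, n = 3). Nrf1 averaged 6.02 ± 0.42 FPKM in mutant livers and 4.72 ± 1.28 FPKM in control livers, Gabpa 14.0 ± 2.63 FPKM in mutant livers and 14.1 ± 1.51 FPKM in control livers, and Esrra, which encodes ERRα, 18.3 ± 2.75 FPKM in mutant livers and 21.4 ± 2.19 FPKM in control livers. The groups of these 5 genes overlapped. Gabpb1, the partner of GABPA, was at 9.93, 7.85 and 10.1 FPKM in mutant livers, against 6.76, 6.74 and 6.18 FPKM in control livers, with every mutant liver higher (log2 fold change 0.49, SE 0.16, adjusted p = 0.266 from limma). Sirt3, a mitochondrial deacetylase, averaged 43.4 ± 5.94 FPKM in mutant livers and 62.4 ± 13.3 FPKM in control livers (log2 fold change -0.51, SE 0.20, adjusted p = 0.287 from limma), and its groups overlapped. Over the 15 tested of 17 listed regulators, an unadjusted p under 0.05 went to 2 higher genes and 1 lower gene, against 13.2% and 3.02% of all genes, so the share of higher ones was that of all genes.

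Genes that copy and express mitochondrial DNA showed no common direction, with a median of 0.08 over 32 genes, of which 2 higher ones and 1 lower one had an unadjusted p under 0.05 (against 13.2% and 3.02% of all genes). Tfam, which packages and transcribes mitochondrial DNA, was at 51.5, 60.5 and 55.1 FPKM in mutant livers, against 50.5, 43.7 and 48.2 FPKM in control livers, higher in every mutant liver by little (log2 fold change 0.23, SE 0.13, adjusted p = 0.387 from limma). Polrmt, the mitochondrial RNA polymerase, averaged 10.96 ± 2.66 FPKM in mutant livers and 8.39 ± 1.32 FPKM in control livers, and Tfb2m, its initiation factor, 17.5 ± 4.83 FPKM in mutant livers and 17.0 ± 3.69 FPKM in control livers (SD, n = 3 each). Polg2, the accessory subunit of the mitochondrial DNA polymerase, was at 4.54, 4.31 and 3.84 FPKM in mutant livers, against 6.07, 7.12 and 7.47 FPKM in control livers. Every mutant liver was lower for Polg2 (log2 fold change -0.69, SE 0.16, adjusted p = 0.255 from limma). Slirp, which stabilises mitochondrial mRNAs, was at 16.7, 12.8 and 12.0 FPKM in mutant livers, against 10.96, 10.6 and 8.92 FPKM in control livers, higher in every mutant liver (log2 fold change 0.43, SE 0.17, adjusted p = 0.294 from limma).

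The mitochondrial ribosome, which makes the 13 mitochondrial proteins, was centred near the median of all genes. The median was 0.20 over 78 mitochondrial ribosomal genes, of which 9 had fold changes below 0. Of the 78, 10 higher ones had an unadjusted p under 0.05 in limma, close to the 13.2% of all genes, and 0 lower ones, against 3.02% of all genes. Mrps28, of the small ribosomal subunit, was at 75.2, 66.1 and 55.1 FPKM in mutant livers, against 40.7, 53.3 and 32.3 FPKM in control livers, higher in every mutant liver (log2 fold change 0.65, SE 0.21, adjusted p = 0.266 from limma). The medians of the assembly lists were -0.05 for complex I (17 genes), 0.11 for complex II (4), 0.20 for complex III (6), 0.07 for complex IV (22) and 0.06 for complex V (6). Their only members at an unadjusted p under 0.05 were Dmac1, Uqcc2 and Coa3, each higher in every mutant liver, a smaller share than the 13.2% of all genes that were higher at that p. Uqcc2, needed for the translation of cytochrome b, was at 72.4, 67.4 and 69.6 FPKM in mutant livers, against 55.2, 56.4 and 42.1 FPKM in control livers (log2 fold change 0.46, SE 0.15, adjusted p = 0.266 from limma). A list of 9 respiratory chain components had a median of -0.03, with 0 at an unadjusted p under 0.05 in either direction in limma. It held Cyc1 and Cycs, which the symbols above did not take in, but also the members Atp5md and Atp5mpl. The difference between the subunits and these lists was not tested.

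**Figure D5:**
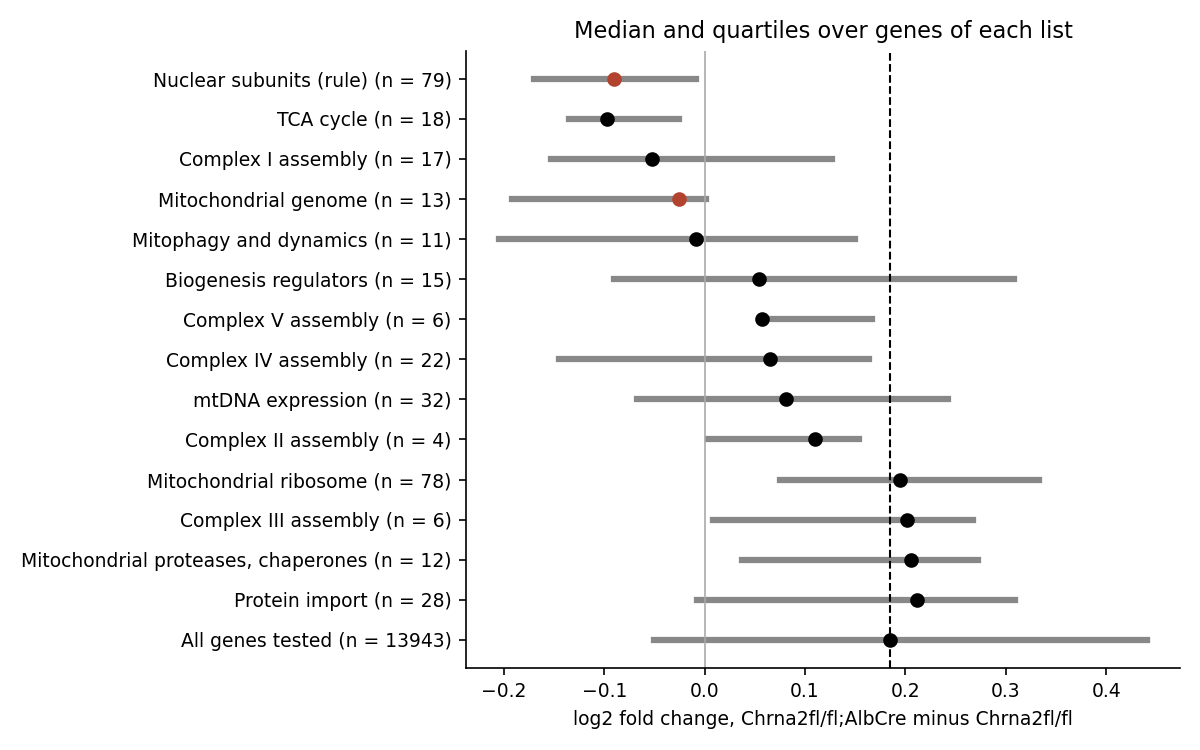
Median (point) and quartiles (bar) over genes of the log2 fold change, mutant minus control, for the subunits (red points) and for other mitochondrial gene lists, with the dashed line at the median of all genes. The nuclear subunits (-0.09) and the TCA cycle (-0.10) lie lowest, and the mitochondrial ribosome (0.20) lies near the dashed line at 0.19.

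Markers of cell types moved between the genotypes beside these values. The 12 general hepatocyte markers had a median of -0.06, close to that of the nuclear subunits, with sums of 80166 to 92804 FPKM in mutant livers and 81861 to 103804 FPKM in control livers. The medians were -0.63 for 9 pericentral and -0.41 for 10 periportal hepatocyte markers. They were 0.76 for 9 stellate, 1.61 for 8 myofibroblast, 0.60 for 8 sinusoidal endothelial, 0.67 for 6 Kupffer cell and 0.91 for 8 monocyte and macrophage markers, and of these 39 genes 39 were above 0. Lists of 3 other cell types were mixed, with medians of 0.54 for 5 cholangiocyte, 0.49 for 5 erythroid and -0.22 for 3 neutrophil markers, of which 1, 1 and 2 were below 0. The myofibroblast markers summed to 129 to 291 FPKM in mutant livers and 33.5 to 198 FPKM in control livers. The part of cell composition in the levels of the subunits was not tested.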

How the data were processed

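Liver RNA of 3 Chrna2fl/fl;AlbCre and 3 Chrna2fl/fl mice was measured. The libraries were directional and poly(A)-selected, and the authors aligned reads to GRCm38 with STAR 2.7.8a and deposited gene FPKM from RSEM 1.3.3, and the submitters' processing notes also name cutadapt 2.3, FastQC 0.11.8 and MultiQC 1.7. The annotation release is not given in the sources used here. FPKM sums were 807344 to 838937 per library.

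All values here were computed from the deposited FPKM. Genes averaging 0.5 FPKM or more were compared as log2(FPKM + 0.1) with limma 3.58.1 (lmFit, then eBayes with a trend, under R 4.3.3, with Benjamini-Hochberg adjustment over all 13943 genes, threshold 0.05), after the method was tested on simulated data. This scale understates changes of genes with low values. Depth was read from values of low genes, of which 88.6% to 91.8% were whole fragments within 0.15, and single values were given no interval. Nothing in the labels ties the replicate letters to litters or days, and 3 livers against 3 allow no exact permutation p under 0.1. Copies were found with BLAST 2.17.0 against GENCODE M21 transcripts, with at least 95% identity over at least 150 bases and 50% of the copy covered. Their fragments were taken as FPKM times annotated length, without correction for the size of the fragments, and added to the member. Promoters came from RefSeq.

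The members, gene lists and tests were chosen with earlier results of these data known. The named genes are the 13 mitochondrial genes, for each complex the most abundant nuclear gene and that with the smallest p in each direction, the Sdh genes, the isoform groups, 8 regulators, and of each other list at most the gene with the smallest p in each direction, here only where its unadjusted p was under 0.05. Alternatives were pseudocounts of 1 and 0.01, no filter, a minimum mean of 5 FPKM, array weights or no trend in limma, the replicate letter as a block, rescaling to common sums, quantile normalization, median-ratio scaling, each library left out, members of at least 10 FPKM, and leaving out overlapping mitochondrial genes. Adding the copies, and a common sum without mitochondrial genes and copies, were chosen after seeing the data.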

Additional observations from a re-analysis of the deposited data

How the results depend on the processing

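No member passed an adjusted p under 0.05 in limma under any of the alternatives. The smallest adjusted p of a member in limma was 0.078 with array weights and 0.082 without control liver b. Of all genes, 7 passed an adjusted p under 0.05 without the trend, 4 with array weights, 3 with a pseudocount of 1, 2 with no filter and 1 at a minimum mean of 5 FPKM. Before adjustment, p was under 0.05 in the main fit for 1 higher and 6 lower members, against 1842 and 421 of all 13943 genes. Higher and lower members at that p numbered 0 and 33 after median-ratio scaling, against 850 and 1085 of all genes. They numbered 0 and 3 without the trend (all genes 1690 and 347) and 3 and 8 with array weights (3003 and 655). With 1 liver left out they numbered 0 to 2 and 1 to 5 (1047 to 2891 and 281 to 516). The letters did not pair the livers (correlations of -0.02, 0.06 and 0.02), and the replicate block gave 0 and 4 (all genes 1705 and 409). Median-ratio scaling gave medians of -0.29 for nuclear subunits and of -0.28, -0.37, -0.32, -0.29 and -0.26 for complexes I to V. With 1 liver left out the nuclear median ran from -0.15 to -0.03, the mitochondrial from -0.16 to 0.08, complexes I to V from -0.15 to -0.01, -0.26 to -0.08, -0.18 to -0.07, -0.16 to -0.082 and -0.11 to -0.03, and the nuclear minus mitochondrial difference from -0.18 to 0.16.

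Some fold changes changed sign, many of them near 0, but also those of mt-Nd4l (-0.71) and mt-Atp6 (-0.26). Array weights gave 0.071 for Gabpa, 0.0028 for Ndufa6, 0.028 for Ppargc1a, -0.11 for Tfb2m, -0.036 for Uqcr10, 0.12 for mt-Co2, -0.010 for mt-Nd1, 0.068 for mt-Nd2 and 0.10 for mt-Nd3. Median-ratio scaling gave -0.15 for Atp5g1, -0.079 for Atp5g2, -0.063 for Atp5h, -0.17 for Cox6a1, -0.032 for Ppargc1b, -0.16 for Tfb2m, -0.16 for Uqcr10, -0.19 for mt-Co3, -0.20 for mt-Cytb, -0.19 for mt-Nd1 and -0.15 for mt-Nd4. Quantile normalization gave -0.015 for Cox6a1, -0.13 for Ppargc1b, -0.13 for Tfb2m, -0.027 for Uqcr10, 0.098 for mt-Co2, -0.072 for mt-Cytb and 0.025 for mt-Nd2. Adding copies gave 0.0096 for mt-Atp6, -0.035 for mt-Co3, 0.038 for mt-Nd3 and 0.044 for mt-Nd4l, and the common sum without mitochondrial genes and copies -0.0004 for mt-Cytb. With 1 liver left out, fold changes ran from -0.041 to 0.095 for Atp5g1, -0.033 to 0.39 for Atp5g2, -0.14 to 0.0040 for Atp5g3, -0.034 to 0.096 for Cox6a1, -0.17 to 0.076 for Gabpa, -0.30 to 0.074 for Ppargc1a, -0.18 to 0.48 for Ppargc1b, -0.24 to 0.042 for Sdhd, -0.18 to 0.18 for Tfb2m, -0.056 to 0.11 for Uqcr10, -0.14 to 0.013 for Uqcrb, -0.23 to 0.084 for mt-Atp8, -0.13 to 0.079 for mt-Co1, -0.16 to 0.17 for mt-Co2, -0.091 to 0.10 for mt-Co3, -0.093 to 0.16 for mt-Cytb, -0.064 to 0.085 for mt-Nd1, -0.19 to 0.13 for mt-Nd2, -0.22 to 0.22 for mt-Nd3, -0.085 to 0.24 for mt-Nd4 and -0.39 to 0.075 for mt-Nd5. The cause of these changes was not tested. Uqcr11, Cox5b, Ndufa3, Cox7a2 and mt-Nd6 kept their direction under every alternative run, as did other named members, among them Cox4i1, Cox7c, Sdha, Sdhb and Atp5b.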

Other observations

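Other mitochondrial genes, outside the subunits, are given as values. The 18 genes of the TCA cycle had a median log2 fold change of -0.10, with 14 below 0, and an unadjusted p under 0.05 in limma went to 0 higher and 2 lower genes, against 13.2% and 3.02% of all genes. Suclg2, a subunit of succinyl-CoA ligase, was at 78.2, 73.7 and 82.5 FPKM in mutant livers, against 103, 90.5 and 113 FPKM in control livers, lower in every mutant liver (log2 fold change -0.38, SE 0.13, adjusted p = 0.272 from limma). The 28 protein import genes had a median of 0.21, with 2 higher and 0 lower at that p in limma, a smaller share of higher genes than over all genes. Timm21, of the inner membrane translocase, was at 33.6, 27.2 and 33.2 FPKM in mutant livers, against 21.5, 22.2 and 22.1 FPKM in control livers, higher in every mutant liver (log2 fold change 0.51, SE 0.13, adjusted p = 0.255 from limma).

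The 12 mitochondrial chaperone, protease and stress genes had a median of 0.21, and Atf5, the transcription factor of the mitochondrial unfolded protein response, led them. It was at 318, 427 and 476 FPKM in mutant livers, against 178, 315 and 139 FPKM in control livers, and mutant liver a exceeded control liver b by little (log2 fold change 1.02, SE 0.31, adjusted p = 0.255 from limma). The 11 genes of mitophagy and mitochondrial dynamics had a median of -0.01, with 0 at an unadjusted p under 0.05 in either direction in limma.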
